A study of Mus musculus with 8 samples.

Results

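The messenger RNAs described here encode the enzymes and regulators of sterol and fatty acid synthesis. They are 31 genes taken by name from the known pathway, out of 13120 genes with at least 1 read. The rule uses no measured value, but the genes were chosen with earlier results of these data known. Their reads numbered 5486, which was 0.285% of all mRNA reads used, and each of the 31 genes had at least 1 read in every library. By role they are 7 genes of the mevalonate steps (Acat2, Hmgcs1, Mvk, Pmvk, Mvd, Idi1, Fdps), 11 genes of the squalene and sterol steps (Fdft1, Sqle, Lss, Cyp51, Tm7sf2, Msmo1, Nsdhl, Hsd17b7, Ebp, Sc5d, Dhcr7), 4 regulators and transport genes (Srebf1, Srebf2, Insig1, Stard4) and 9 genes of fatty acid synthesis and desaturation (Acly, Acaca, Fasn, Elovl6, Tecr, Scd1, Scd2, Fads1, Fads2).

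The cells were P19, a mouse embryonal carcinoma line from a male embryo, kept undifferentiated in serum-containing medium. All groups were wild type. For 24 h or 48 h, with fresh medium every 24 h, the cells received either MHY1485 (MHY) at 10 µM, a small molecule that activates the kinase mTOR, or its solvent DMSO in equal amount. Poly(A) RNA was read by nanopore direct RNA sequencing, so that each read gives a transcript and the length of its poly(A) tail. The 4 groups (DMSO at 24 h, MHY at 24 h, DMSO at 48 h, MHY at 48 h) held 2 libraries each, which the study's methods describe as biological replicates. Libraries carry the names in the deposited table, 21 and 23 at 24 h and 24 and 25 at 48 h, and these are names and not hours. The libraries held 178369 to 316546 mRNA reads. A further column of the deposited table, headed sample, has 3 values at 24 h and 2 at 48 h. These are taken here as sequencing runs, which the column name does not state. The study's methods give 2 independent multiplexed libraries per time point. All 4 libraries of a time point shared every run, so that time and run cannot be told apart. MHY library 24 of 48 h stood apart from the rest. Outside the set, 4.46% of its mRNA reads had tails under 30 nt, against 3.38% in MHY library 25 and 2.17% to 2.87% in the other 6, and the calls in read number at 48 h and over time are given with and without it.

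Sterol and fatty acid synthesis share a transcriptional switch. The sterol regulatory element-binding proteins (SREBPs), encoded by Srebf1 and Srebf2, are held in the endoplasmic reticulum membrane by Insig proteins while sterols are plentiful. When sterols fall they move to the Golgi, are cleaved, and enter the nucleus, where they bind promoters of the pathway genes together with partners such as NF-Y and Sp1. The kinase complex mTORC1 is known to raise SREBP activity, which is why these mRNAs are of interest after an mTOR activator.

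Promoters are shown first because SREBPs are known to bind promoters of the pathway genes. Among the 31 genes, 24 had a promoter window in the RefSeq table (build GRCm38.p6, 300 bases around the annotated start, most of them before it). The windows of Fdps, Scd2, Scd1, Fdft1, Sqle, Fads1 and Stard4 were not used here, so that of the 3 genes called lower at 48 h only Tecr is among the 24. The sterol regulatory element was searched as TCACNCCAC, the NF-Y box as CCAAT and the Sp1 box as GGGCGG, each on both strands. A gene with several annotated starts was counted once. CCAAT was present in 20 of the 24 genes, beside 41.1% of 27025 genes, and GGGCGG in 20 of the 24, beside 38.2%. The 27025 are annotated genes with or without reads here, and 13120 genes had a read. The share among expressed genes was not counted, so that these motifs cannot be called a trait of the set. TCACNCCAC was present in 1 of the 24 (Hmgcs1), beside 1.44%. A match is a description of letters and not a shown binding site. Windows of 30 bases show the Hmgcs1 match and the 3 NF-Y boxes of Tecr, with the motif in capitals (ATTGG is CCAAT on the opposite strand).
Hmgcs1, chr13:119690204-119690233, plus strand, TCACNCCAC match starting 137 bases before the start: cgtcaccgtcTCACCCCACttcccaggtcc
Tecr, chr8:83594610-83594639, minus strand, box starting 136 bases before the start: ggcttccttttgATTGGtgggtggccgggt
Tecr, chr8:83594528-83594557, minus strand, box starting 54 bases before the start: tcgagaaatctgATTGGtcagttgtgtggc
Tecr, chr8:83594484-83594513, minus strand, box starting 10 bases before the start: caccccacgctgATTGGcaggagggacgca

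Summed over the 31 genes, read number was level in 3 groups and lower in the libraries treated with MHY for 48 h. Under DMSO at 24 h the set gave 308.3 and 297.6 reads per 100000 mRNA reads (mean 303 ± 7.56, SD, n = 2), and under MHY at 24 h 342.3 and 300.5 (321.4 ± 29.5, n = 2). At 48 h the DMSO libraries gave 297.6 and 300.4 (299 ± 1.97, n = 2), and the MHY libraries 201.2 and 259.7 (230.5 ± 41.3, n = 2). Both MHY libraries at 48 h lay below the other 6. The lower of them was library 24, with a 95% Wilson interval of 186 to 218, which does not overlap the interval of 239 to 282 of library 25; these intervals cover counting error only. No test was run on the summed level, because the genes were chosen with results of these data known. At 24 h the MHY libraries stood above the DMSO libraries in 2 runs (337 and 305 against 276 and 296, 347 and 318 against 284 and 286) and overlapped them in the third (345 and 268 against 401.5 and 317). At 48 h the lower level was seen in both runs (191 and 249 against 309 and 303 in one, 208 and 267 against 289.7 and 299 in the other, MHY against DMSO). In RNA from whole cultures, fewer cells of a kind and less RNA per cell cannot be told apart.

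By role, the squalene and sterol genes stood higher under MHY at 24 h, at 76.9 and 70.1 reads per 100000 against 59.1 and 60.2, without overlap. All 9 of them that were tested lay above 0 (52.7% of all genes tested lay below 0), none was called, and gene by gene the treatments stood apart in 2 of the 9 (Dhcr7 and Tm7sf2), beside 17.8% of all genes tested. The other roles overlapped between the treatments at 24 h. At 48 h the mevalonate genes gave 62.6 and 77.5 reads per 100000 under MHY at 48 h, against 96.4 and 93.5 under DMSO, and the groups did not overlap. The fatty acid genes gave 76.7 and 100.9 against 119.8 and 117.8, also without overlap. For the squalene and sterol genes the values were 46.2 and 64.0 against 63.6 and 70.1, and these overlapped. The regulators and transport genes gave 15.7 and 17.3 against 17.8 and 18.96. Without Tecr, Fdps and Scd2, the 3 genes that passed the test at 48 h, the set still gave 158 and 188 under MHY against 210.1 and 206 under DMSO.

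**Figure D1:**
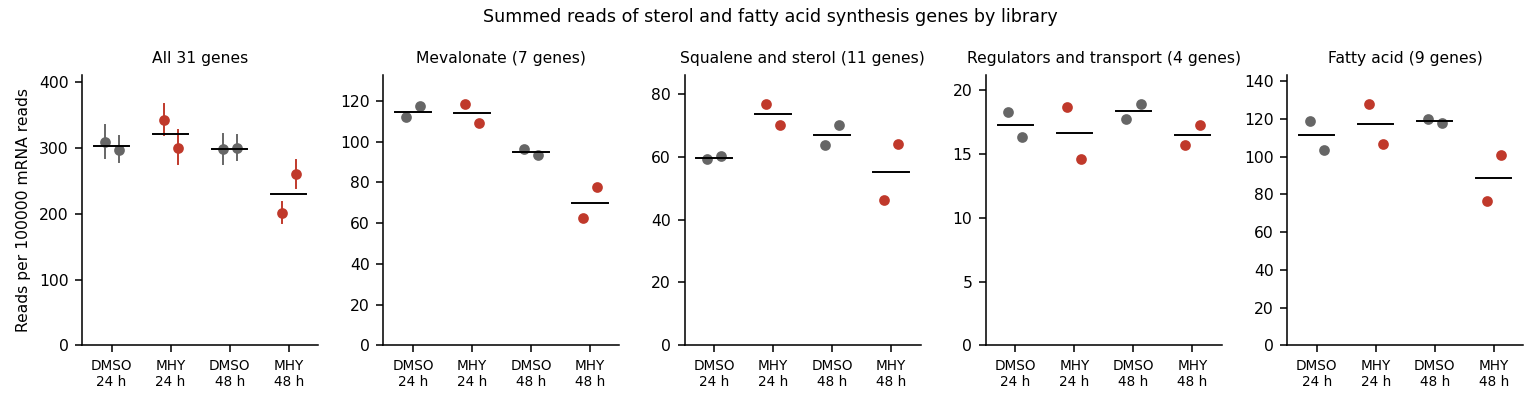
Reads per 100000 mRNA reads (y axis, from 0) summed over all 31 genes and over each role, in the 8 libraries (x axis: group); dots are libraries, the black line is the mean of 2, and the bars in the first panel are 95% Wilson intervals. In the first panel the MHY libraries at 48 h stand at 201.2 and 259.7, below the other 6.

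At 24 h no gene of the set passed the test. Read number per gene was compared with limma voom over all 8 libraries and 4116 genes (at least 10 reads in at least 2 libraries), with a Benjamini-Hochberg adjusted p under 0.05 as the threshold; 28 of the 31 genes entered, none of them through 1 group alone. Hsd17b7 (11 reads), Stard4 (38) and Sc5d (43) had too few reads. The count of genes called was 0 of 28, beside 0.0486% of all genes tested (2 genes), and 3 of 28 had an unadjusted p under 0.05, beside 4.47%. Of the 28, 18 lay above 0 on the log2 scale and 10 below, with a median of 0.09 (all genes tested: -0.02). Both MHY libraries stood above both DMSO libraries in 5 of the 28 (Dhcr7, Fdps, Insig1, Tecr and Tm7sf2), beside 17.8% of all genes tested. Fads2, the desaturase that opens polyunsaturated fatty acid synthesis, was at 13.6 and 10.5 reads per 100000 under DMSO and 4.89 and 6.73 under MHY (log2 change -1.06, SE 0.36, limma adjusted p = 0.75).

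At 48 h Tecr, Fdps and Scd2 were called lower under MHY and no gene of the set was called higher. Each encodes an enzyme: Tecr the reductase of the last step of fatty acid elongation, Fdps the farnesyl pyrophosphate synthase at the end of the mevalonate steps, and Scd2 a stearoyl-CoA desaturase that makes monounsaturated fatty acids. The count was 3 lower of 28, beside 1.31% of all genes tested that were lower. The 28 genes ran from -1.46 (Tm7sf2) to 1.15 (Ebp) on the log2 scale, with 25 below 0 and a median of -0.55 (all genes tested: -0.02). With an unadjusted p under 0.05, 11 of 28 were lower, beside 7.24%; without MHY library 24 these were 2 of 28, beside 2.74%. Without a filter on low counts, all 31 genes could be fitted, and 26 lay below 0 (median -0.54). In 14 of the 28, neither MHY library reached the lower of the DMSO libraries, beside 14.4% of all genes tested. Scaling by total reads in place of median-of-ratios size factors shifted the median of all genes from -0.02 to 0.10 and changed the split of all calls from 17 higher and 54 lower to 32 higher and 28 lower; the same 3 genes of the set were called lower, and the median of the set was -0.43.

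**Figure D2:**
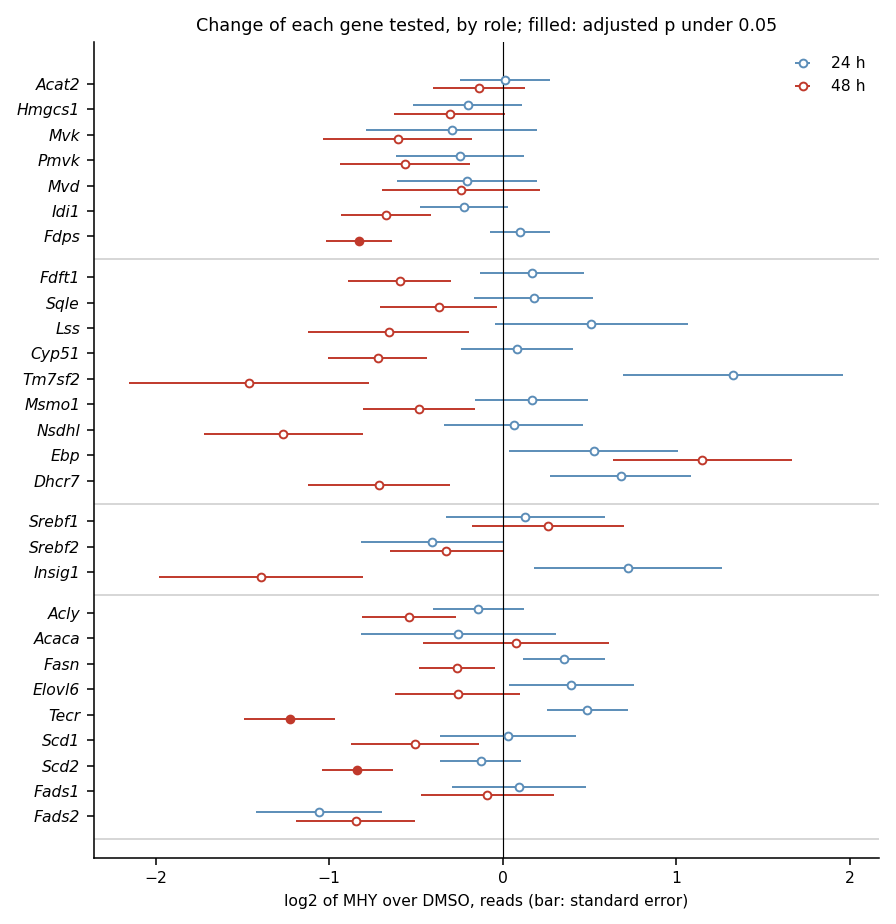
log2 of MHY over DMSO in read number (x axis) for the 28 genes tested (y axis, grouped by role), at 24 h in blue and at 48 h in red; bars are standard errors and filled dots have an adjusted p under 0.05. At 48 h 25 of 28 genes lie left of 0 and the filled ones are Fdps, Tecr and Scd2, while at 24 h none is filled.

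Fdps, a gene of chromosome 3 (89093588 to 89101959, minus strand, mm10), had the most reads of the set, 786. It gave 45.5 and 51.5 reads per 100000 under DMSO at 24 h, 53.3 and 53.3 under MHY at 24 h, 40.7 and 39.8 under DMSO at 48 h, and 22.5 and 27.6 under MHY at 48 h. Both MHY libraries at 48 h lay below the other 6, and within each run of that time below both DMSO libraries (18.7 and 27.9 against 51.3 and 38.3, and 25.1 and 27.3 against 33.1 and 40.9). The change at 48 h was -0.83 (SE 0.19, limma adjusted p = 0.00227), 1.77-fold lower. Only 41.9% of its reads had a mapping quality of at least 10, and with those alone the change was -0.51 and missed the threshold (limma adjusted p = 0.373). The change at 24 h was 0.10 (SE 0.17), and the difference between both effects was -0.93 (SE 0.26, limma adjusted p = 0.077).

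Tecr (chromosome 8, 83571698 to 83607971, minus strand) gave 17.8 and 17.4 reads per 100000 under DMSO at 24 h, 23.6 and 27.5 under MHY at 24 h, 19.2 and 18.6 under DMSO at 48 h, and 5.14 and 18.2 under MHY at 48 h. One library, MHY 24, stood low with 16 reads, and MHY 25 was close to the nearer DMSO library (18.6). In 1 run at 48 h the MHY libraries gave 4.68 and 15.6 against 14.5 and 22.95, and in the other 5.45 and 20.1 against 22.6 and 15.6, so that only library 24 was below both DMSO libraries in each run. At 24 h the MHY libraries were above the DMSO libraries in 2 runs (26.2 and 32.9 against 17.1 and 17.1, 27.7 and 26.6 against 18.6 and 16.3) but not in the third (12.99 and 18.9 against 17.9 and 19.4). The change at 48 h was -1.23 (SE 0.26, limma adjusted p = 0.000705); without MHY library 24 it was -0.11 (limma adjusted p = 0.964). Scd2 (chromosome 19, 44293674 to 44306864, plus strand) gave 27.2 and 18.9 under DMSO and 24.9 and 16.3 under MHY at 24 h, then 27.6 and 36.3 under DMSO and 15.7 and 26.2 under MHY at 48 h. Both MHY libraries at 48 h lay below both DMSO libraries of that time, but overlapped those of 24 h. Within runs they lay below in 1 (14.1 and 23.4 against 27.9 and 39.0) and overlapped in the other (16.9 and 28.1 against 27.4 and 34.4). Its change at 48 h was -0.84 (SE 0.20, limma adjusted p = 0.00617), and it missed the threshold with limma trend in place of voom (-0.74, limma adjusted p = 0.146).

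All 3 calls at 48 h needed MHY library 24. Without MHY library 24, none of the 28 genes was called; Fdps had a change of -0.60 (limma adjusted p = 0.584) and Scd2 of -0.36 (limma adjusted p = 0.820), 21 of 28 genes still lay below 0, and the median was -0.28. Without DMSO library 25, 1 gene (Tecr) was called, while Fdps (-0.82, limma adjusted p = 0.084) and Scd2 (-0.59, limma adjusted p = 0.495) were not. The part that the short tails of this library have in the changes of read number was not tested.

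The other mevalonate genes were below 0 at 48 h without passing the test, between -0.14 (Acat2) and -0.67 (Idi1). Idi1, the isomerase that supplies dimethylallyl pyrophosphate, gave 18.8 and 18.1 reads per 100000 under DMSO at 24 h, 15.1 and 17.4 under MHY at 24 h, 19.2 and 13.9 under DMSO at 48 h, and 8.99 and 14.0 under MHY at 48 h (48 h: -0.67, SE 0.26, limma adjusted p = 0.195). Its groups overlapped at 48 h. Hmgcs1, the synthase that forms HMG-CoA, changed by -0.31 (SE 0.32) at 48 h, and Mvk, mevalonate kinase, by -0.61 (SE 0.43). Hmgcs1 gave 7.49 and 10.1 reads per 100000 under DMSO and 7.70 and 7.94 under MHY at 48 h, and Mvk 4.68 and 5.69 against 3.21 and 4.67. Pmvk and Mvd, the kinase and the decarboxylase that follow Mvk, had values of -0.56 (SE 0.37) and -0.24 (SE 0.46).

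Of the squalene and sterol genes tested, 8 of 9 were below 0 at 48 h and none passed the test. Fdft1, which makes squalene, gave 15.7 and 7.61 reads per 100000 under DMSO at 24 h, 12.9 and 10.7 under MHY at 24 h, 11.2 and 12.0 under DMSO at 48 h, and 7.70 and 9.34 under MHY at 48 h (48 h: -0.59, SE 0.30, limma adjusted p = 0.385). Cyp51, the lanosterol demethylase, gave 8.38 and 10.5, then 11.6 and 8.97, then 14.0 and 13.0, then 8.99 and 8.41 in the same order of groups (48 h: -0.72, SE 0.29, limma adjusted p = 0.212). In both genes the MHY libraries at 48 h lay below the DMSO libraries of that time. Nsdhl and Tm7sf2 act beside Cyp51 in removing methyl groups and reducing the ring. Nsdhl gave 5.62 and 6.32 under DMSO and 1.93 and 4.67 under MHY at 48 h (-1.26, SE 0.46, limma adjusted p = 0.144). Tm7sf2 gave 2.09 and 1.81 under DMSO and 4.89 and 5.61 under MHY at 24 h, then 3.28 and 3.79 under DMSO and 0.963 and 2.34 under MHY at 48 h (24 h: 1.33, SE 0.63, limma adjusted p = 0.958; 48 h: -1.46, SE 0.69, limma adjusted p = 0.348). Neither pair of Tm7sf2 groups overlapped, and the order of the groups was opposite at the 2 times. Sqle, the squalene epoxidase, Lss, the lanosterol synthase, and Msmo1, the methyl sterol oxidase, had values of -0.37, -0.66 and -0.48 at 48 h, and Dhcr7, which makes cholesterol in its last step, of -0.71 (SE 0.41). Ebp, the sterol isomerase, was the exception, at 1.40 and 3.48 under DMSO and 4.81 and 9.81 under MHY at 48 h (1.15, SE 0.52, limma adjusted p = 0.325); it is named here because its direction was seen to differ.

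Among the regulators, the SREBP genes themselves gave no call. Srebf2, the factor that chiefly drives sterol genes, gave 6.80 and 7.25 reads per 100000 under DMSO at 24 h, 7.56 and 3.36 under MHY at 24 h, 7.96 and 8.85 under DMSO at 48 h, and 6.42 and 8.87 under MHY at 48 h, with overlap at both times (48 h: -0.32, SE 0.32, limma adjusted p = 0.734). Srebf1, the factor that chiefly drives fatty acid genes, gave 5.23 and 3.99, then 5.33 and 4.49, then 4.21 and 3.48, then 5.46 and 4.20 (48 h: 0.26, SE 0.44, limma adjusted p = 0.873). Insig1, which retains SREBPs in the endoplasmic reticulum and is itself an SREBP target, gave 3.74 and 5.37 under DMSO and 1.60 and 2.34 under MHY at 48 h, from 5 to 17 reads per library (-1.39, SE 0.59, limma adjusted p = 0.268). Stard4, a sterol carrier, had 2 to 7 reads per library and was not tested.

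Of the 9 fatty acid genes, 8 were below 0 at 48 h, among them Tecr and Scd2. Fasn, the fatty acid synthase, gave 22.0 and 15.6 reads per 100000 under DMSO at 24 h, 26.7 and 20.2 under MHY at 24 h, 23.4 and 19.6 under DMSO at 48 h, and 17.01 and 22.4 under MHY at 48 h. Its groups overlapped at both times (48 h: -0.26, SE 0.22, limma adjusted p = 0.671). Acly, which makes cytosolic acetyl-CoA from citrate, gave 14.5 and 14.2 under DMSO and 11.2 and 9.81 under MHY at 48 h (-0.54, SE 0.27, limma adjusted p = 0.385). Acaca, the carboxylase that makes malonyl-CoA, was at 0.08 (SE 0.54). Fads2 was below 0 at both times, with 11.7 and 8.21 under DMSO and 6.42 and 4.67 under MHY at 48 h (-0.85, SE 0.34, limma adjusted p = 0.228), and its groups did not overlap at either time. Fads1, its partner desaturase, was at -0.09 (SE 0.38) at 48 h, Elovl6, an elongase, at -0.26 (SE 0.36), and Scd1, the relative of Scd2, at -0.51 (SE 0.37). The share of reads with a mapping quality of at least 10 was 67.5% over the set and 71.5% over all genes, but 0% in Dhcr7 and Acaca, 7.06% in Acly and 8.05% in Srebf1.

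**Figure D3:**
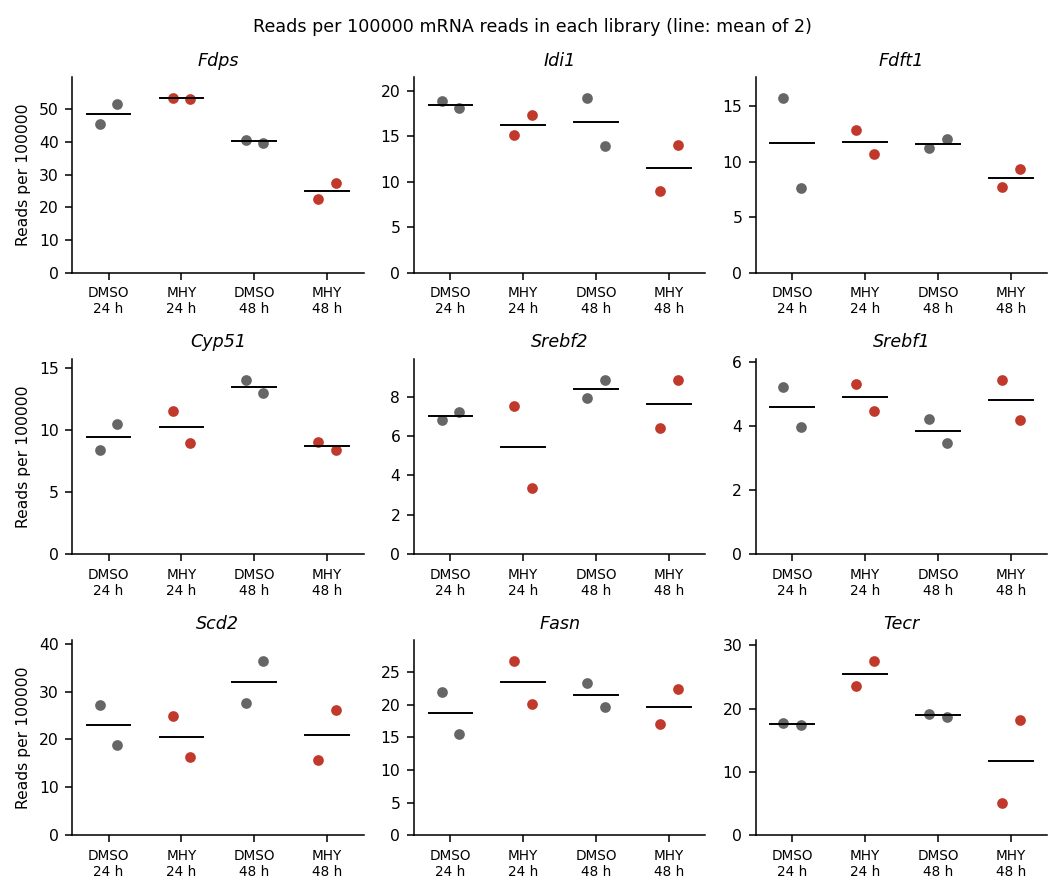
Reads per 100000 mRNA reads (y axis, from 0) of the genes with the most reads in each role and of Tecr, in the 4 groups (x axis); each dot is a library and the line is the mean of 2. For Fdps both MHY libraries at 48 h (22.5 and 27.6) lie below all others, while for Tecr 1 library stands at 5.14 and the other at 18.2.

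The effect of MHY differed between the time points for Tecr. The difference of its effects (48 h minus 24 h) was -1.71 on the log2 scale (SE 0.35, limma adjusted p = 0.00121), and it was the sole gene of the 28, beside 0.292% of all genes that were lower in this contrast. Without MHY library 24 it was -0.59 (limma adjusted p = 0.995). Over both treatments, 48 h against 24 h, Fdps fell by 0.76 (SE 0.13, limma adjusted p = 4.39e-06) and Tecr fell by 0.78 (SE 0.18, limma adjusted p = 0.00323), 2 of 28 beside 0.705% of all genes that were lower. Within DMSO the change from 24 h to 48 h was -0.30 for Fdps and 0.08 for Tecr, and no gene was called (0 of 28 beside 0% of all genes in this limma fit, with 1 of 28 beside 4.25% at an unadjusted p under 0.05, the 1 gene being Scd2). Within MHY it was -1.22 for Fdps and -1.64 for Tecr (2 of 28 lower, beside 0.948% of all genes), and without MHY library 24 it was -1.002 for Fdps (limma adjusted p = 0.0117) and -0.52 for Tecr (limma adjusted p = 0.823). These contrasts share libraries with the comparison at 48 h, and time and run cannot be told apart. Without MHY library 24, Fdps was still called over both treatments (-0.65, limma adjusted p = 0.00342) and Tecr was not (-0.22, limma adjusted p = 0.832).

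Genes of the same pathway outside the set were counted from 4 lists. In sterol synthesis and uptake 6 of 11 genes could be tested, in SREBP processing and mTORC1 input 3 of 12, in the liver X receptor and efflux list 1 of 6, and in fatty acid synthesis 12 of 18. None was called at 24 h, in the difference or over time. At 48 h 1 gene was called, Slc25a1, the mitochondrial citrate carrier that supplies Acly, and it was lower. It gave 16.4 and 12.0 reads per 100000 under DMSO and 5.78 and 7.94 under MHY at 48 h (-1.16, SE 0.30, limma adjusted p = 0.0149). At 48 h 5 of the 6 sterol genes tested lay below 0 (median -0.30), and 5 of the 12 fatty acid genes did (median 0.13), beside 51.5% of all genes tested. So did 1 of the 3 tested for SREBP processing and mTORC1 input (median 0.28), and the 1 of the liver X receptor list. Summed, the SREBP processing and mTORC1 input list gave 31.9 to 35.9 reads per 100000 under DMSO and 43.2 to 46.2 under MHY at 24 h. At 48 h it gave 35.7 to 43.5 and 42.0 to 42.4, which overlapped. The other lists overlapped at 24 h. The 1 call among the 22 genes of these lists stands beside 1.31% of all genes tested. The call of Slc25a1 was lost without MHY library 24 (-0.83, limma adjusted p = 0.728) and without DMSO library 24 (-0.99, limma adjusted p = 0.145), and missed the threshold when scaled by total reads (limma adjusted p = 0.051) and with a barcode confidence of at least 0.9 (limma adjusted p = 0.0625).

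Pou5f1 and Sox2, markers of the cells' label, had reads in every library. Pou5f1 stood at 238 to 291 reads per 100000 in all 8 libraries and Sox2 at 8.90 to 17.8. Of 10 embryonal carcinoma markers 9 had reads, summing to 346 to 397, most of it from Pou5f1. Dppa5a, 1 of the 9, had 0 to 4 reads per library, and 7 of the 10 could be tested. Zfp42 had 0 reads, for which a count of 0 allows up to 0.948 to 1.68 reads per 100000 in a library. The same held for Dcx of 6 neuron markers, Col3a1 of 5 fibroblast and mesoderm markers, and Afp, Alb and Sox17 of 5 endoderm markers. Neuron markers summed to 33.7 and 33.8 under DMSO and to 24.8 and 26.6 under MHY at 48 h. At 24 h the sums overlapped, at 31.9 to 36.6 under DMSO and 29.8 to 44.3 under MHY. Only 2 of the 6 could be tested, and at 48 h 1 lay below 0 and 1 above, with none called. Of the 7 embryonal carcinoma markers tested at 48 h, 4 lay below 0 and 3 above (median -0.16). Tdgf1, a pluripotency co-receptor gene, was the 1 called, beside 1.31% of all genes tested that were lower. It fell from 28.5 and 33.2 to 14.8 and 20.1 (-0.997, SE 0.21, limma adjusted p = 0.000679). T, the 1 of 5 fibroblast and mesoderm markers that could be tested, fell from 7.02 and 23.1 to 3.21 and 18.7 (-1.19, SE 0.30, limma adjusted p = 0.0089), with groups that overlapped. Over time, 48 h against 24 h, T rose by 1.63 (SE 0.40, limma adjusted p = 0.0118), and by 2.39 (limma adjusted p = 4.92e-06) without MHY library 24. At 48 h without that library neither gene was called: Tdgf1 was at -0.69 (limma adjusted p = 0.580) and T turned direction to 0.34 (limma adjusted p = 0.892). Fibroblast and mesoderm markers, T included, summed to 4.19 to 5.80 under DMSO and 1.68 to 3.56 under MHY at 24 h, and to 8.42 to 25.3 and 6.42 to 21.02 at 48 h. Endoderm markers summed to at most 0.642. Their part in the lower sterol and fatty acid reads, at 48 h and over time, was not tested.

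The poly(A) tails of the set were longer than those of other mRNA. The mean tail of its pooled reads lay at 109 to 122 nt over the libraries, against 101 to 109 nt for all other mRNA reads, and was higher in 8 of 8 libraries. Tails of 30 to 90 nt, the class the study calls ~60-nt, made up 29.5% to 40.8% of the set's reads and 37.9% to 43.8% of the others; the set had the lower share in 7 of 8 libraries, the exception being MHY library 21 at 24 h. Weighted by reads, the fatty acid genes had the longest mean (125 nt, 28.7% in the 30 to 90 nt class), followed by regulators and transport (117 nt, 32.2%), mevalonate (111 nt, 38.1%) and squalene and sterol genes (111 nt, 35.6%). Gene by gene the set was less set apart: 16 of the 30 genes with at least 30 reads lay above the median of 5842 such genes, 112.9 nt, and the median of the 30 was 115.8 nt.

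Tails varied widely within each role. Acaca (136.3 nt), Scd2 (136 nt), Insig1 (135.8 nt) and Hmgcs1 (135 nt) had the longest mean tails among those 30 genes, each at or above the 90.9th percentile of all genes. Ebp had the shortest, 92.0 nt (2.65th percentile), with 8.79% of its 91 reads under 30 nt. Nsdhl (98.6 nt), Mvk (99.4 nt) and Mvd (100.7 nt) followed, between the 11.04th and 15.7th percentiles. Fdps lay below the median of genes with 108 nt, and Tecr above it with 120.1 nt. These are descriptions, with SDs over reads of 44.7 to 68.2 nt.

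**Figure D4:**
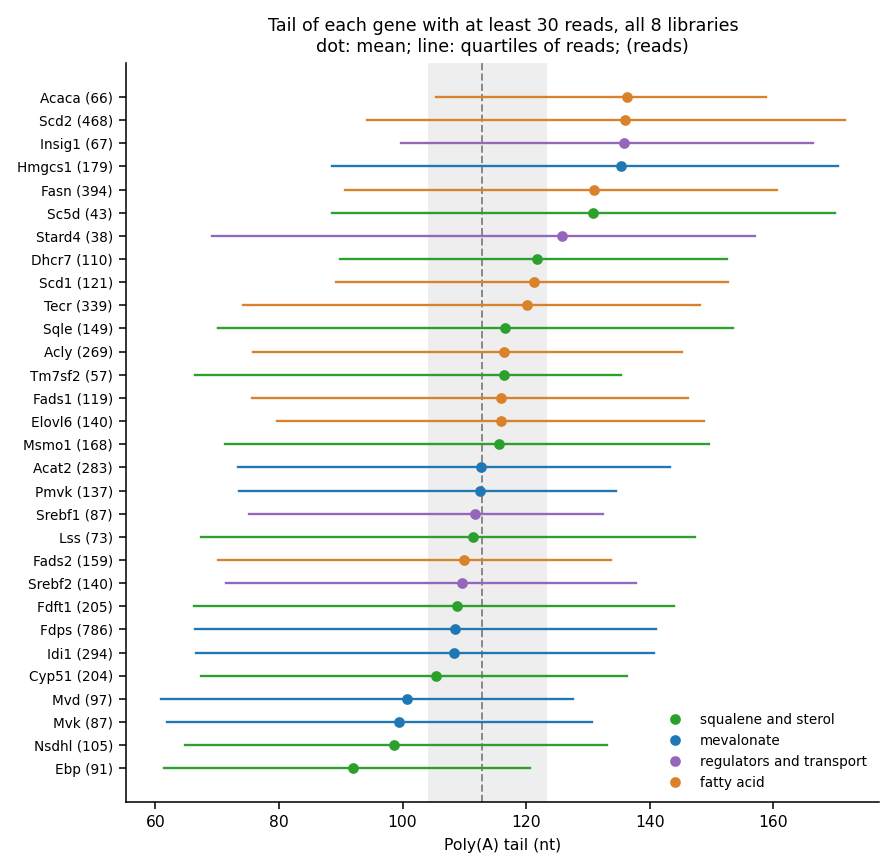
Poly(A) tail in nt (x axis) of the 30 genes with at least 30 reads (y axis, read number in brackets), all 8 libraries pooled; dots are means, lines span the quartiles of reads, colours are roles, the dashed line is the median of gene means over 5842 genes (112.9 nt) and the grey band their quartiles. Ebp stands lowest at 92.0 nt, and Acaca, Scd2, Insig1 and Hmgcs1 stand highest, near 136 nt.

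Treatment changed no tail of the set past the threshold. Mean tail and class shares were compared with limma for 1949 genes with at least 10 reads in each library, which took in 14 of the 31 genes. In mean tail the count was 0 of 14 in each contrast, beside 0% of all genes at 24 h, 0.770% at 48 h, 0% for the difference and 0.359% over time. In the ~60-nt share it was 0 of 14 beside 0%, 0.257%, 0% and 1.13%, and in the share under 30 nt 0 of 14 beside 0%, 0.359%, 0% and 0%, in the same order. At an unadjusted p under 0.05, the limma fit of mean tail held 1, 1, 1 and 0 of the 14 (beside 4.16%, 9.34%, 4.98% and 12.4% of all genes), that of the ~60-nt share 1, 0, 0 and 1 (beside 4.87%, 6.16%, 3.54% and 9.70%), and that of the share under 30 nt 0 in all contrasts (beside 5.64%, 10.6%, 8.52% and 9.54%). For Fdps, the gene with most reads, the 95% interval of the change in mean tail was -18.1 to 6.44 nt at 24 h. At 48 h it was -22.8 to 6.05 nt, so that changes within these bounds remain compatible with the data. The other 13 genes had wider intervals, such as -13.5 to 46.9 nt for Fads2 at 24 h and -35.6 to 22.4 nt for Fdft1 at 48 h. Before adjustment, those of Hmgcs1 at 24 h (-56.2 to -9.73 nt) and Idi1 at 48 h (-46.5 to -0.19 nt) left out 0.

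The pooled mean tail differed between MHY and DMSO by -1.39 nt at 24 h and by -1.36 nt at 48 h, less than the spread between libraries. At 48 h the MHY libraries stood at 109 and 122 nt, on either side of the DMSO libraries at 115.9 and 118.5 nt. MHY library 24 had 4.78% of the set's reads under 30 nt (95% Wilson interval 3.37% to 6.75%), and the other 7 libraries 1.49% to 2.73%. Of the 14 genes, Hmgcs1 had the largest difference of effects in mean tail. It stood at 142.8 and 149 nt under DMSO and 115.0 and 111 nt under MHY at 24 h, then 136.7 and 125.7 nt under DMSO and 149.2 and 151.7 nt under MHY at 48 h. The groups did not overlap at either time and the direction was opposite, with 16 to 32 reads per library; the difference of effects was 53.8 nt (SE 15.9, limma adjusted p = 0.903).

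Read ends show where the tails were attached. For each gene the transcript with the most reads was taken from GENCODE (vM21, to which 73 of 75 transcripts of the set matched by versioned name), and the most frequent read end was set beside the annotated 3′ end. In 22 of 30 genes with at least 30 such reads the main end lay within 50 nt of the annotated one. In 8 it lay further upstream: Fasn by 1233 nt, Fdft1 by 1254 nt, Cyp51 by 976 nt, Srebf1 by 513 nt, Nsdhl by 384 nt, Acat2 by 160 nt, Idi1 by 84 nt and Sc5d by 3149 nt. A poly(A) signal was found in the 40 bases before the main end in 28 of 30 genes (AATAAA in 23, ATTAAA in 5), and Fdft1 and Nsdhl had neither. The 30 bases up to the main end are shown for the 3 genes called lower at 48 h, with the signal in capitals (mm10). Fasn and Cyp51 are shown as examples of ends upstream of the annotation.
Fdps, chr3:89093594-89093623, minus strand: gggagggagggggtctcAATAAAttattgt
Tecr, chr8:83571710-83571739, minus strand: gccatggctctccagcagcaacAATAAAac
Scd2, chr19:44306826-44306855, plus strand: tgtttgttcatAATAAAatgaaatgatctg
Fasn, chr11:120807079-120807108, minus strand: tcctgatcccacaATTAAActgcacgtgag
Cyp51, chr5:4082121-4082150, minus strand: aacacactccccaaAATAAAacctcttttc

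Ends were mostly single. At Fdps 97.2% of 705 reads, at Tecr 98.2% of 217, at Scd2 95.9% of 467 and at Fasn 94.0% of 383 ended within 15 nt of the main end. A second end with at least 15% of reads was present in 7 genes: Cyp51, Msmo1, Srebf2, Scd1, Lss, Sc5d and Stard4. In Scd1 the annotated end held 53.7% of reads and another 3271 nt upstream 19.8%, with mean tails of 134 nt (65 reads) and 99.7 nt (24 reads). In Msmo1 an end 94 nt upstream held 28.8%, with mean tails of 112 nt at the main end (114 reads) and 125 nt at the other (46 reads). In Cyp51 the main end took 50% to 68.8% of reads in the libraries of 24 h and 30% to 44.4% in those of 48 h, from 16 to 41 reads per library; the times did not overlap and the treatments did, and this gene was picked after its values were seen.

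**Figure D5:**
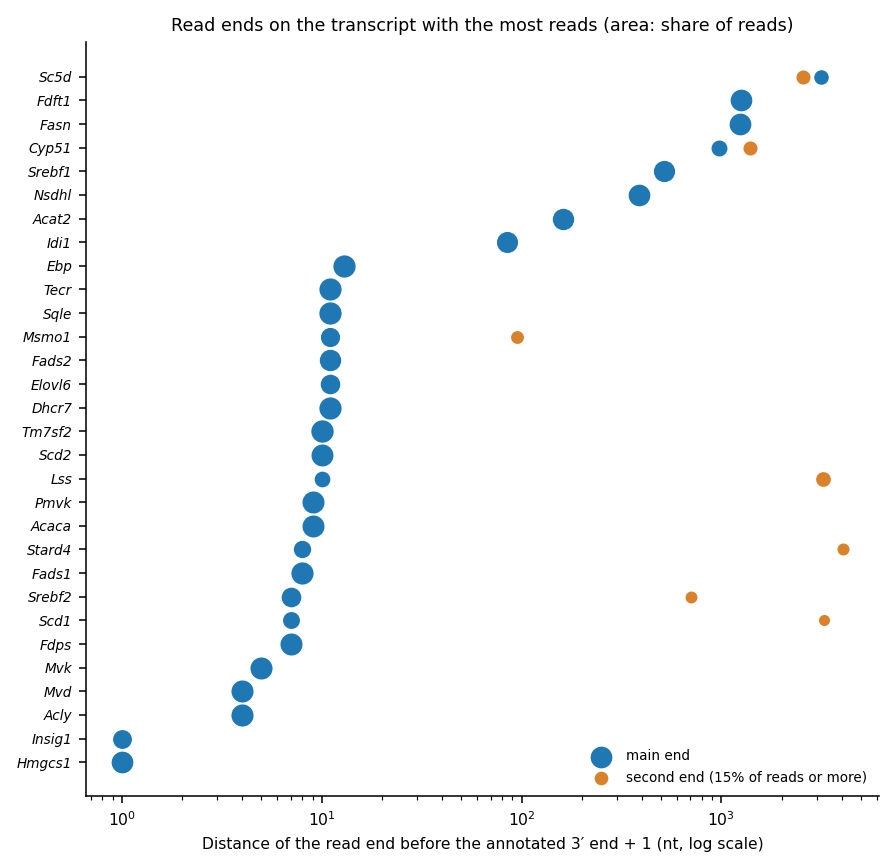
Distance in nt, plus 1, from the read end back to the annotated 3′ end (x axis, log scale) for the 30 genes with at least 30 reads on their leading transcript (y axis); blue marks the main end, orange a second end with at least 15% of reads, and the area of a mark is its share of reads. In 22 genes the main end lies within 50 nt of the annotated end, and in Fasn, Fdft1 and Sc5d it lies by 1233, 1254 and 3149 nt upstream.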

How the data were processed

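The members and gene lists were chosen with earlier results of these data known. According to the methods of the study, Guppy was the base caller, minimap2 (2.20 in the submitters' processing notes) the aligner with GENCODE vM17 on mm10, Nanopolish the tool for tails and Deeplexicon that for barcodes. The deposited table lists 1 alignment per line. Tail lengths deposited by the authors are in nt, and positions count along the transcript. The mapping quality deposited is a minimap2 score, and the deposited barcode confidence is a fraction.

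Of 2439710 alignments, 2005246 had the tag PASS and class mRNA. After 1 line per read and transcript was kept, 66955 mitochondrial and 12169 pseudogene lines were set aside, as in the study's methods, and 1926118 lines remained. Lines were summed per gene and library. The table names the hours only for the 48 h conditions, and the conditions with no hour were taken as 24 h. The resulting counts were fitted with limma voom (limma 3.58.1, R 4.3.3, median-of-ratios scaling, 4 group means, no block). Mean tails and log2 odds of class shares (0.5 read added per class) were fitted with limma, weighted by reads. All p-values were adjusted over all genes tested (Benjamini-Hochberg), and scripts were tested on simulated data.

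Every gene of the set was described by role. Values in every library were given for those called in any contrast and for the 2 of each role with the most reads, and other named genes were picked after their values were seen. Library pairs of a group differed beyond counting noise (chi-square per degree of freedom 1.19 to 1.56).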

Additional observations from a re-analysis of the deposited data

Results flagged for a closer look

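Tecr was the gene of the set whose response to MHY differed between 48 h and 24 h by a test of the difference itself, the interaction term of the limma voom fit. The difference was -1.71 on the log2 scale (SE 0.35, limma adjusted p = 0.00121). Tecr was higher in 2 of 2 MHY libraries at 24 h (23.6 and 27.5 reads per 100000 against 17.8 and 17.4), though not in the third run of 24 h (12.99 and 18.9 against 17.9 and 19.4), while at 48 h 1 MHY library was far lower and the other close to the DMSO libraries (5.14 and 18.2 against 19.2 and 18.6). The difference was -0.59 (limma adjusted p = 0.995) without MHY library 24 of 48 h. Leaving out any single one of the 8 libraries gave -2.48 to -0.59, and the call was also lost without DMSO library 23 (limma adjusted p = 0.066) or MHY library 23 (0.0638) of 24 h and without DMSO library 25 of 48 h (0.0649). It was lost as well with limma trend (0.0792), at mapping quality 10 or above (0.0758) and at barcode confidence 0.9 or above (0.0558).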

How the results depend on the processing

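The 3 calls of the set at 48 h stayed at 2 or 3 under every alternative that kept all libraries (2 with limma trend, which lost Scd2, and 2 at mapping quality 10 or above, which lost Fdps), and were 0 to 3 with a library left out (0 without MHY library 24, 1 without DMSO library 25). The 1 call in the difference became 0 with limma trend, with a mapping quality of at least 10 and with a barcode confidence of at least 0.9, and ran from 0 to 2 with a library left out; it was 0 without DMSO library 23 or MHY library 23 of 24 h and without DMSO library 25 or MHY library 24 of 48 h, and 2 without MHY library 25. The 2 calls over time became 1 with limma trend and with a barcode confidence of at least 0.9, 0 within the DMSO libraries (chosen after seeing the data), and 1 to 2 with a library left out (1 without MHY library 23 or MHY library 24). With the replicate block (the number as a block within each time point), 3 genes of the set were called at 48 h and 1 in the difference, as without it. The block changed no call of the set, and could not be fitted for time, since each number belongs to 1 time point. Deviations of same-numbered libraries from the group means correlated at 0.04 at 24 h and 0.02 at 48 h in read number. Counting noise lowers this value, so that it cannot show whether these libraries were paired. No call was reversed, and none appeared in 199 alternative fits of tails. Over all genes, calls in read number at 48 h (71) ran from 17 to 147 and those in the difference (14) from 0 to 30. The summed level at 24 h (log2 of MHY over DMSO 0.08) was -0.23 in the third run alone; the cause was not tested. Depth limits the set: 17 genes had under 10 reads in a library and were left out of the tail tests.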
